A study of Homo sapiens with 18 samples.

Results

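The data compare 3D cells (D-3) with fresh isolated tumor tissue (FIT) across all genes. Members were chosen by their labels: 3 D-3 libraries and 3 FIT libraries, 6 of the 18 libraries of the series. The rest of the series holds 2D cells (D-2), 3D cell-printed tissue (DP-3) and cultured isolated tissue (IT), each with 3 libraries after 14 days of culture, and 3 libraries of DP-3 on day 1. All groups are labelled as Saos-2, an established human osteosarcoma (OS) line that the labels spell Soas-2 and list as WT, with no other allele or agent named. In D-3, cells were mixed into Matrigel, a gel of basement membrane proteins, and kept in DMEM-F12 with serum for 14 days. FIT was tumor that had grown for 2 weeks in the axilla of female BALB/c nude mice, 4 weeks old at implantation, after injection of the same cells in Matrigel, and it was not cultured. Nude mice lack T cells but keep other immune cells, vessels and stroma, so that FIT holds mouse cells beside the human ones. The labels do not say that replicates came from separate cultures or separate animals, so the p-values given here measure the spread between libraries, which may be technical.

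Cells that run short of an amino acid or that accumulate unfolded protein switch on ATF4, a transcription factor that raises amino acid synthesis and uptake. NF-κB drives genes for chemokines and cytokines, and NRF2 drives genes that detoxify oxidants and store iron. Bone-forming tumor cells lay down collagen and answer to BMP and Wnt ligands, to insulin-like growth factors and to PDGF, which a host also supplies to a tumor.

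Estimated counts summed to 60226010 to 67231699 per library in D-3. FIT replicates 1 and 2 held 64271701 and 65871171 counts, while FIT replicate 3 held 23721666 and stood apart from the other FIT libraries. Pearson's r of log2 FPKM across genes was 0.943 to 0.958 within D-3 and 0.927 to 0.960 within FIT, the lower values being those of FIT replicate 3, against 0.885 to 0.922 between the groups. FPKM gives a gene's sequenced fragments relative to its transcript length and to the size of the library. Of the line's defining markers, SPARC and RUNX2 were present in both groups, whereas ALPL and SP7 stayed at or below 0.095 FPKM and IBSP was listed at 0 in all 6 libraries. For these 3 osteoblast markers the levels went against the labelled line, whose identity was not tested.

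Compared with the FIT group, 1399 of 21676 genes tested were differentially expressed genes (DEGs) in D-3, which is 6.45%. A DEG had a fold change of at least 2 and an adjusted p below 0.05 by the quasi-likelihood test of edgeR (Benjamini-Hochberg adjusted), and every adjusted p below comes from this test. Of the DEGs, 929 were upregulated in D-3 (4.29% of genes tested) and 470 were downregulated (2.17%). These shares are the background for the counts of every gene group in D-3 against FIT. The FPKM ranges of the groups did not overlap for 7013 genes (32.4%). Leaving out D-3 replicate 3 left 371 DEGs, leaving out D-3 replicate 1 left 470, and 700 and 623 were called with FIT replicate 1 or FIT replicate 2 left out. Without FIT replicate 3 there were 1512. Since calls depended on single libraries, full values are given mainly for the 323 DEGs that were called in all 6 fits leaving out 1 library, and for other genes a call that was lost when a library was left out is noted. Each library was left out on its own. Log2 fold changes are D-3 minus FIT, given ± SE, and a positive value means a higher level in D-3. The median log2 fold change over all genes tested was 0.02.

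**Figure D1:**
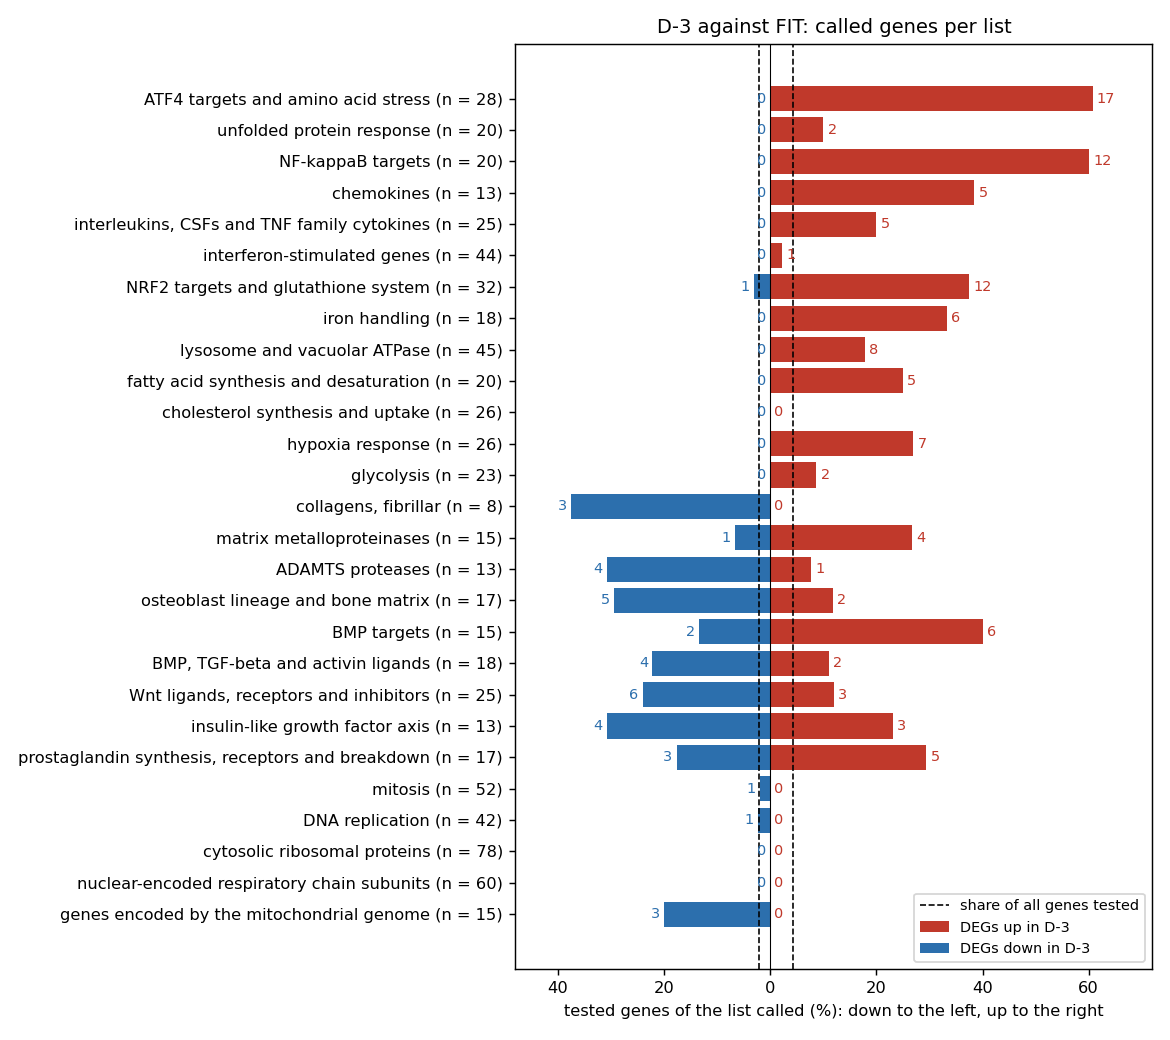
Share of the tested genes of each list that were DEGs in D-3 against FIT (%), with upregulated DEGs to the right, downregulated DEGs to the left and the number of DEGs beside each bar; n is the number of genes tested and the dashed lines mark the 4.29% and 2.17% of all genes tested. The ATF4 and NF-κB target lists reach furthest to the right with 17 and 12 genes, and the fibrillar collagens furthest to the left with 3 genes.

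Most ATF4 targets rose in D-3. Of 28 listed genes, all tested, 17 were upregulated, against 4.29% of all genes tested, and 0 were downregulated (0 at an unadjusted p under 0.05, 0 by DESeq2). The median log2 fold change was 1.27. The 12 genes GDF15, FGF21, DDIT3, ASNS, DDIT4, SLC7A11, TRIB3, CTH, STC2, PCK2, MTHFD2 and PHGDH were called whichever library was left out. The other 5 DEGs, PSAT1, SESN2, SLC3A2, SLC7A5 and CEBPB, each lost the call without at least 1 library. ASNS makes asparagine from aspartate, and its level was 25.3, 23.8 and 26.9 FPKM in D-3 replicates 1 to 3 and 2.13, 2.74 and 6.28 FPKM in FIT replicates 1 to 3 (log2 fold change 2.72 ± 0.37, adjusted p = 0.00687). No D-3 library overlapped a FIT library for ASNS.

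The start regions of 16 of the 17 upregulated ATF4 targets could be read from RefSeq windows on GRCh38.p14 that run from 250 bases before to 50 bases after the start. The motif TGATGNAA, a core of the composite site bound by ATF4 with C/EBP proteins, was searched on both strands and was present in 3 of these 16 windows (ASNS, FGF21 and SLC3A2) and in 3.67% of all 27305 windows. The windows of ASNS (chr7:97872359-97872658, minus strand) and FGF21 (chr19:48755274-48755573, plus strand) are shown because both genes rose and both hold the motif upstream of the start, with the motif in capitals. It lies 68 bases before the start in ASNS and, on the other strand, 54 bases before the start in FGF21. A match describes the letters of the window and does not show that a factor was bound. The list was made of known ATF4 targets and its uncalled members were not searched, so the share does not tie the motif to the change.
ASNS: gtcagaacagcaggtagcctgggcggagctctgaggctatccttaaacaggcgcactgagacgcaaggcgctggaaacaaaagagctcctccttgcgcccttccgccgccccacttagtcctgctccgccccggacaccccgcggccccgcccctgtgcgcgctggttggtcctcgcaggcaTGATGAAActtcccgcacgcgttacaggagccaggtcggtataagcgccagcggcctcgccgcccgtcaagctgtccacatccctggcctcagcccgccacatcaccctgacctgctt
FGF21: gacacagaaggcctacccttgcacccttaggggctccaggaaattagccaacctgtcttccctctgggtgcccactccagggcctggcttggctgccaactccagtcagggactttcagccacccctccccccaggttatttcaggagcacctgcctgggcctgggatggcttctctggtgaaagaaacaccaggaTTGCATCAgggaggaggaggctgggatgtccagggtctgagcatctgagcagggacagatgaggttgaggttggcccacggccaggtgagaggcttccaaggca

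Among the secreted products of this program, GDF15, a stress cytokine that acts on the brainstem to lower appetite, was at 66.04, 20.3 and 52.1 FPKM in D-3 and 1.65, 1.198 and 0.453 FPKM in FIT (log2 fold change 5.27 ± 0.58, adjusted p = 0.00348). FGF21, a hormone of the fasting response, was at 4.39, 3.32 and 3.82 FPKM in D-3 and at 0.148, 0.313 and 0.188 FPKM in FIT (log2 fold change 4.0 ± 0.46, adjusted p = 0.00387). The lowest D-3 library exceeded the highest FIT library for both hormones. DDIT3 encodes CHOP, a transcription factor of prolonged stress, and reached 145, 64.6 and 112 FPKM in D-3 against 11, 9.61 and 7.29 FPKM in FIT (log2 fold change 3.46 ± 0.32, adjusted p = 0.00188). TRIB3, a pseudokinase that restrains AKT and ATF4, had a log2 fold change of 2.35, and DDIT4, an inhibitor of mTORC1, of 2.71. The gene for ATF4 itself was at 157, 24.9 and 40.9 FPKM in D-3 and 21.9, 27.8 and 15.1 FPKM in FIT and was not a DEG (adjusted p = 0.135), D-3 replicate 1 being far above the other 5 libraries. INHBE and ATF3, further stress-induced genes, rose by log2 fold changes of 2.02 and 2.06. ATF3 was the only upregulated gene of 30 immediate early and AP-1 genes tested, of which FOSB and DUSP4 were downregulated. At an unadjusted p under 0.05, 4 of the 30 were higher and 8 lower. The downregulated count of that list was 0 with D-3 replicate 1 or 3 or FIT replicate 1 left out and 1 with FIT replicate 2 left out.

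Some of the ATF4 targets are enzymes of serine, glycine and cysteine synthesis. PHGDH, the first enzyme of serine synthesis, had a log2 fold change of 1.15, MTHFD2, a mitochondrial folate enzyme, of 1.24, and CTH, which makes cysteine from cystathionine, of 2.17. SLC7A11, the cystine importer, was at 8.96, 7.13 and 7.98 FPKM in D-3 and 0.676, 1.29 and 1.603 FPKM in FIT (log2 fold change 2.7 ± 0.31, adjusted p = 0.00396). All 3 D-3 libraries were above all 3 FIT libraries for SLC7A11. PSAT1, the enzyme after PHGDH, had a log2 fold change of 1.5 but was not a DEG without D-3 replicate 3 (adjusted p = 0.0595) or FIT replicate 2 (adjusted p = 0.05). The genes of the unfolded protein response proper moved less: 2 of 20 were DEGs, HSPA5, the main chaperone of the endoplasmic reticulum (log2 fold change 1.69 ± 0.21, adjusted p = 0.00505), and HYOU1, its exchange factor (log2 fold change 1.29 ± 0.20, adjusted p = 0.0114), although 19 of the 20 were higher in D-3. DESeq2 called 4 of the 20.

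D-3 also differed from flat culture of the same line. In D-3 against D-2, 3746 of 20231 genes tested were DEGs, 2946 upregulated in D-3 (14.6%) and 800 downregulated (3.95%). These 2 shares are the background for every count in that comparison. Of the 28 ATF4 targets, 16 were upregulated and 0 were downregulated in D-3 against D-2 (1 at an unadjusted p under 0.05, 0 by DESeq2). GDF15 had a mean of 0.241 ± 0.0543 FPKM (SD, n = 3) in D-2 (log2 fold change 7.29 ± 0.53, adjusted p = 0.00082), 2.13 ± 1.08 in DP-3 and 14.1 ± 10.7 in IT. ASNS had a mean of 2.82 ± 0.4197 FPKM in D-2 (log2 fold change 2.91 ± 0.14, adjusted p = 0.000488), 4.85 ± 1.29 in DP-3 and 7.49 ± 5.32 in IT. For both genes the D-3 mean was the highest of the 5 groups at day 14.

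Most NF-κB targets rose as well. Of 20 genes tested, 12 were upregulated and 0 were downregulated (1 at an unadjusted p under 0.05, 0 by DESeq2), with a median log2 fold change of 1.6. The count was 7 with D-3 replicate 1 left out and 4 with D-3 replicate 3 left out. LCN2, ICAM1, IL6 and SOD2 were called in all 6 of these fits, while CCL20, TNFAIP6, CXCL8, CXCL2, BIRC3, TNFAIP3, NFKB2 and RELB each lost the call without at least 1 library. IL6, the cytokine of the acute phase, was at 7.79, 10.1 and 13.3 FPKM in D-3 and 1.35, 0.555 and 0.357 FPKM in FIT (log2 fold change 3.64 ± 0.47, adjusted p = 0.00575). SOD2, the superoxide dismutase of mitochondria, was at 25.2, 12.5 and 22.6 FPKM in D-3 and 4.02, 3.63 and 2.32 FPKM in FIT (log2 fold change 2.53 ± 0.32, adjusted p = 0.00538). Neither gene overlapped between the groups. LCN2, an iron-scavenging protein of innate immunity, was at 3.23, 3.23 and 4.11 FPKM in D-3 and at or below the limit of detection, assumed at 12 estimated counts, in every FIT library, which makes it at least 23.4-fold higher. ICAM1, the adhesion molecule that leukocytes bind, was at least 9.08-fold higher by the same limit.

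The κB motif, read here as GGG, then any 2 bases, then TTTCC, was searched on both strands of the same kind of window and was found in 5 of the 11 upregulated NF-κB targets with a window (CCL20, IL6, CXCL2, BIRC3 and TNFAIP3), against 1.92% of all 27305 windows. The windows of IL6 (chr7:22726950-22727249, plus strand), CXCL2 (chr4:74099146-74099445, minus strand) and TNFAIP3 (chr6:137867009-137867308, plus strand), all from RefSeq on GRCh38.p14, are shown because these genes are a cytokine, a chemokine and an inhibitor of the same pathway, each with the motif in capitals upstream of the start. It lies 73 bases before the start in IL6, 78 in CXCL2, and at 67 and 55 bases in TNFAIP3, whose window holds it in duplicate. Members of the list that were not called were not searched. Since the list was made of known NF-κB targets, the share does not tie the motif to the change in D-3.
IL6: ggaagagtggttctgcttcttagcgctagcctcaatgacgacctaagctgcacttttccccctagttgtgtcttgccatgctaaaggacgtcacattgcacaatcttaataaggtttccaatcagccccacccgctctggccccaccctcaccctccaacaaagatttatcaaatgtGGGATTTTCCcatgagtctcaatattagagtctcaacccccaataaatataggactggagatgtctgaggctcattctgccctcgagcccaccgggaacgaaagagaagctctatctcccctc
CXCL2: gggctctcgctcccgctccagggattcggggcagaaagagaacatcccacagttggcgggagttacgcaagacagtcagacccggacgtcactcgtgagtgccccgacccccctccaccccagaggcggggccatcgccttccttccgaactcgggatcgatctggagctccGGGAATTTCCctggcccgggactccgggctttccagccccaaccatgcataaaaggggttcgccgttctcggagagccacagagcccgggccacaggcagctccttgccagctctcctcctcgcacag
TNFAIP3: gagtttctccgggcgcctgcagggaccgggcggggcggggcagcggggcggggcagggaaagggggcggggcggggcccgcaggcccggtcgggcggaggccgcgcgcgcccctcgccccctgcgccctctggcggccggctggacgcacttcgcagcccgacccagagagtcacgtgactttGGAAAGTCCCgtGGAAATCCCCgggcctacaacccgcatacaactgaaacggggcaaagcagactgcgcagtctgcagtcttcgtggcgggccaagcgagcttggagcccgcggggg

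Some chemokines rose, and CCL20, CXCL8 and CXCL2 are also in the NF-κB list. Of 13 chemokines tested, 12 were higher in D-3, 5 were upregulated DEGs and 0 were downregulated (1 at an unadjusted p under 0.05, 1 by DESeq2). The median log2 fold change was 2.13 (1.63 with the genes at the limit of detection set at their bounds). The number of upregulated chemokines was 0 with D-3 replicate 3 left out, 2 with FIT replicate 1 left out and 3 with FIT replicate 2 or 3 left out, and the number downregulated was 1 with FIT replicate 3 left out. CXCL8, which attracts neutrophils, was at 11.1, 18.1 and 27.96 FPKM in D-3 and 0.945, 3.62 and 1.17 FPKM in FIT (log2 fold change 3.2 ± 0.59, adjusted p = 0.0186), and the call was lost without D-3 replicate 3 (adjusted p = 0.077). CXCL2, a related chemokine, was at 4.26, 9.04 and 6.85 FPKM in D-3 and 0.493, 1.59 and 0.668 FPKM in FIT (log2 fold change 2.75 ± 0.54, adjusted p = 0.0217), with the call lost without D-3 replicate 3 (adjusted p = 0.083), FIT replicate 1 (adjusted p = 0.0601) or FIT replicate 3 (adjusted p = 0.053). CXCL3 had a log2 fold change of 2.62, with the call lost without D-3 replicate 3 (adjusted p = 0.057). CXCL2 and CXCL3 are near-identical in parts of their sequence, so the authors' counting could have shared reads between them.

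Of 25 interleukins, colony stimulating factors and TNF family cytokines tested, 5 were upregulated in D-3 and 0 were downregulated (2 at an unadjusted p under 0.05, 1 by DESeq2). The upregulated count was 3 with D-3 replicate 3 or FIT replicate 1 left out, and the downregulated count was 1 with D-3 replicate 2 left out. IL6, CSF1 and IL32 were called in all 6 fits leaving out 1 library, whereas IL24 and CSF2 were not. CSF1, the growth factor of macrophages, was at 64.9, 48.9 and 65.9 FPKM in D-3 and 17.4, 15.5 and 14.5 FPKM in FIT (log2 fold change 1.86 ± 0.17, adjusted p = 0.00188). IL32, a cytokine that induces TNF, had a log2 fold change of 1.81. Few interferon-stimulated genes were DEGs. Of 44 tested, 1 (IFI44L) was upregulated, 0 were downregulated (4 at an unadjusted p under 0.05, 2 by DESeq2), and the median log2 fold change was -0.33. IFI44L lost the call without D-3 replicate 1 (adjusted p = 0.061), FIT replicate 2 (adjusted p = 0.0708) or FIT replicate 3 (adjusted p = 0.0549). EdgeR called 6 lower without FIT replicate 3 and 2 lower without D-3 replicate 2. In D-3 against D-2, 25 of 43 interferon-stimulated genes tested were upregulated, with a median log2 fold change of 1.24, beside 13 of 20 NF-κB targets and 8 of 13 chemokines. Of all genes tested there, 14.6% were upregulated. Markers of macrophages, a host cell that makes many of these products, summed to 66.2 to 91.8 FPKM in D-3 and 25.4 to 61.9 FPKM in FIT. Their defining markers PTPRC, C1QA, C1QB, C1QC and TYROBP were at or near 0 in both groups.

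**Figure D2:**
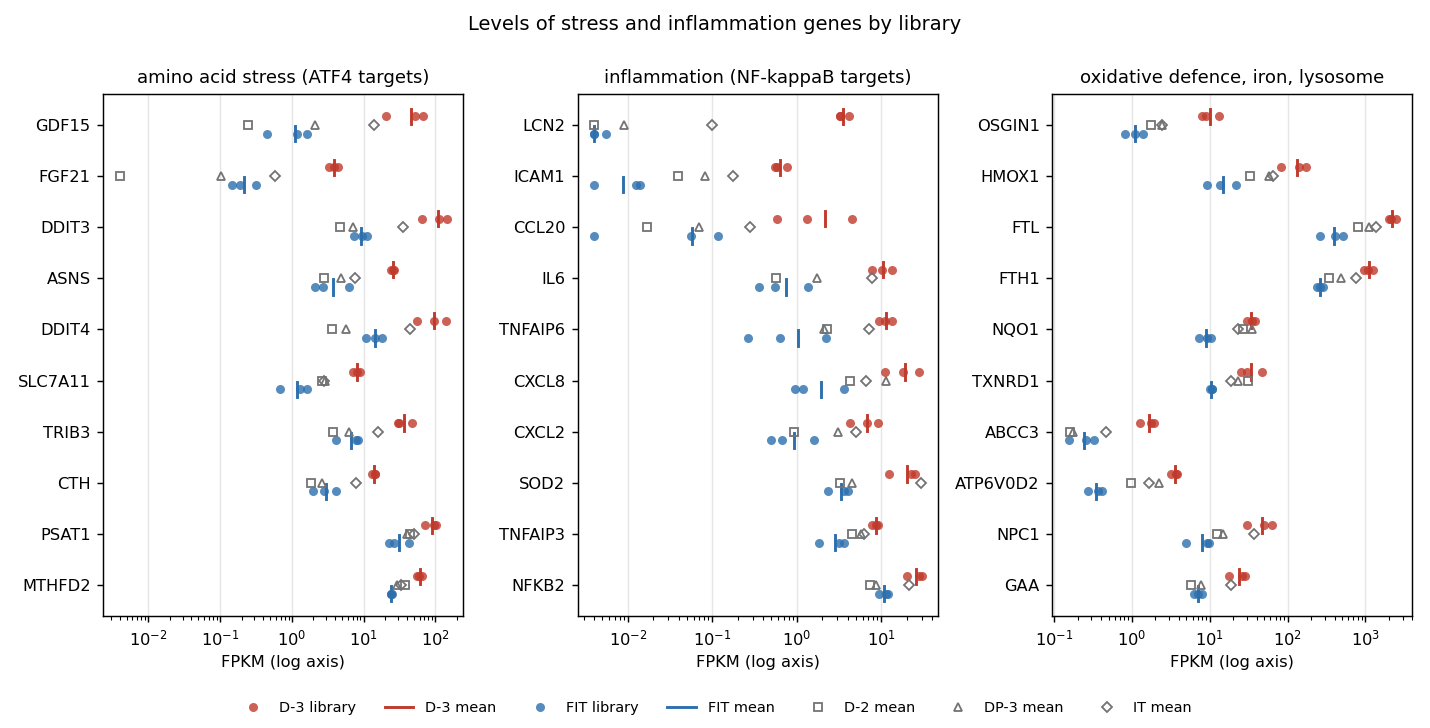
FPKM on a log axis of 10 ATF4 targets, 10 NF-κB targets and 10 genes of oxidative defence, iron storage and the lysosome, with red points for D-3 libraries, blue points for FIT libraries, bars for group means, open gray symbols for the means of D-2, DP-3 and IT, and values below 0.004 FPKM drawn at 0.004. The red points lie to the right of the blue points for every gene shown, with the widest gap in LCN2 and the narrowest in genes such as NFKB2.

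The pathways that the deposited annotation pairs with genes gave the largest shares of upregulated DEGs to 6 immune entries, among 289 pathways with at least 15 genes tested. Graft-versus-host disease led with 8 of 17 genes, followed by Autoimmune thyroid disease and Allograft rejection with 7 of 17 each, Intestinal immune network for IgA production with 9 of 22, Type I diabetes mellitus with 8 of 20 and Staphylococcus aureus infection with 9 of 30. The 48 calls in these 6 pathways were 13 different genes. The 7 genes present in at least 4 of them were CD80, a costimulator of T cells, and the MHC class II genes HLA-DMA, HLA-DMB, HLA-DPA1, HLA-DRA, HLA-DRB1 and HLA-DRB5, which present peptides to helper T cells. Levels of these genes were low. HLA-DRB1 was at 2.395, 1.75 and 0.98 FPKM in D-3 and at or below the limit of detection in FIT, at least 8.703-fold higher, and was called in all 6 fits leaving out 1 library. HLA-DMA was at 5.02, 4.56 and 4.28 FPKM in D-3 and 2.19, 1.77 and 2.15 FPKM in FIT (log2 fold change 1.12 ± 0.24, adjusted p = 0.0289), with the call lost without D-3 replicate 1, D-3 replicate 3, FIT replicate 1 or FIT replicate 2. CD74, the chain that escorts MHC class II, and CIITA, the regulator of these genes, were not DEGs (adjusted p = 0.382 and 0.263). The HLA genes share sequence with one another, so the split of reads among them is uncertain. The largest downregulated shares were in Protein digestion and absorption (7 of 49, 6 upregulated), Mucin type O-glycan biosynthesis (3 of 21, 1 upregulated) and Basal cell carcinoma (7 of 50, 6 upregulated). Next came 2 Hippo signaling entries (3 of 26, 0 upregulated, and 13 of 121, 7 upregulated) and chondroitin and dermatan sulfate biosynthesis (2 of 18, 0 upregulated). Of all genes tested, 2.17% were downregulated. These 35 calls were 25 different genes, some with a lost call given below.

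NRF2 targets and genes of the glutathione system were higher in D-3. Of 32 tested, 12 were upregulated, 1 (AKR1B10) was downregulated and 28 had a positive log2 fold change, with a median of 0.64. OSGIN1, HMOX1, SLC7A11, ABCC3, FTL, FTH1, NQO1 and TXNRD1 were called in all 6 fits leaving out 1 library. GSTM3, AKR1C2, MGST1, SLC48A1 and AKR1B10 were not, and the downregulated count was 0 with D-3 replicate 1, 2 or 3 or FIT replicate 2 or 3 left out. HMOX1, which splits heme into iron, carbon monoxide and biliverdin, was at 171, 139 and 82.3 FPKM in D-3 and 13.3, 21.8 and 9.18 FPKM in FIT (log2 fold change 3.06 ± 0.40, adjusted p = 0.00596). NQO1, a quinone reductase, was at 37.9, 34.8 and 29.9 FPKM in D-3 and 7.31, 9.08 and 10.3 FPKM in FIT (log2 fold change 1.88 ± 0.19, adjusted p = 0.00238). No D-3 library overlapped a FIT library for either gene. OSGIN1, an oxidative stress response gene, had a log2 fold change of 3.11, and TXNRD1, the cytosolic thioredoxin reductase, of 1.63. NFE2L2, which encodes NRF2, had a log2 fold change of 0.78 (adjusted p = 0.0415), below the 2-fold threshold. Against D-2, 6 of 33 tested were upregulated, where 14.6% of all genes tested were. There 0 were downregulated (9 at an unadjusted p under 0.05, 0 by DESeq2), against 3.95% of all genes tested, and the median was 0.06. In that comparison 1 was downregulated without D-3 replicate 1 and 2 were without D-3 replicate 2.

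Genes of iron storage rose together with HMOX1, a gene of heme breakdown. Of 18 iron handling genes, 6 were upregulated and 0 were downregulated (1 at an unadjusted p under 0.05, 0 by DESeq2). The count was 3 with D-3 replicate 1 or 3 or FIT replicate 1 left out. FTL, the ferritin light chain, was at 2473, 1976 and 2127 FPKM in D-3 and 519, 404 and 263 FPKM in FIT (log2 fold change 2.41 ± 0.27, adjusted p = 0.00348). FTH1, the ferritin heavy chain, was at 1240, 968 and 1083 FPKM in D-3 and 237, 258 and 286 FPKM in FIT (log2 fold change 2.02 ± 0.17, adjusted p = 0.00165), but it has many processed copies and overlaps BEST1, so its counts are less certain. STEAP1, ACO1 and BLVRB were the other iron genes, beside HMOX1, that were DEGs, and each lost the call without at least 1 library.

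Genes of the lysosome and the vacuolar ATPase that acidifies it were shifted upward, with 8 of 45 upregulated, 0 downregulated (0 at an unadjusted p under 0.05, 0 by DESeq2) and 34 higher in D-3. The count was 5 with D-3 replicate 1 or 3 or FIT replicate 1 or 2 left out. ATP6V0D2, a subunit of the proton pump that is abundant in osteoclasts, was at 3.74, 3.67 and 3.19 FPKM in D-3 and 0.4098, 0.361 and 0.269 FPKM in FIT (log2 fold change 3.27 ± 0.32, adjusted p = 0.00238). NPC1, which exports cholesterol from the lysosome, was at 62.05, 29.6 and 50.2 FPKM in D-3 and 9.68, 9.34 and 4.89 FPKM in FIT (log2 fold change 2.5 ± 0.35, adjusted p = 0.00806). The groups did not overlap for either gene. GAA, which degrades glycogen, had a log2 fold change of 1.69. MITF, CTSH, CTSD and CTSL were also upregulated but lost the call without at least 1 library.

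The hypoxia list overlapped in part with the stress genes. Of 26 hypoxia response genes tested, 7 were upregulated, 0 were downregulated (1 at an unadjusted p under 0.05, 0 by DESeq2) and 23 were higher in D-3, with a median log2 fold change of 0.82. The count was 3 with D-3 replicate 1 or 3 left out and 4 with FIT replicate 2 left out. DDIT4, STC2 and LOX kept the call in all 6 of these fits, and NDRG1, INSIG2, P4HA1 and P4HA2 did not. DDIT4 and STC2 are also ATF4 targets. LOX, which cross-links collagen, was at 36.7, 30.2 and 39.5 FPKM in D-3 and 8.94, 9.89 and 15.9 FPKM in FIT (log2 fold change 1.56 ± 0.23, adjusted p = 0.00917). Glycolysis, which hypoxia usually raises, had 2 upregulated genes of 23 (ENO2 and SLC16A1), 0 downregulated (3 at an unadjusted p under 0.05, 0 by DESeq2), and a median of 0.05. The upregulated count was 0 with D-3 replicate 1 or FIT replicate 2 left out and 1 with D-3 replicate 3 or FIT replicate 1 or 3 left out.

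Lipid genes split between the pathways. Of 20 genes of fatty acid synthesis and desaturation, 5 were upregulated (ELOVL7, ACACB, FADS3, ELOVL4 and ACSS2) and 0 were downregulated (1 at an unadjusted p under 0.05, 0 by DESeq2), but the count was 1 with D-3 replicate 1 left out, 0 with D-3 replicate 3 or FIT replicate 1 or 2 left out and 3 with FIT replicate 3 left out. Of 26 genes of cholesterol synthesis and uptake, edgeR called 0 in either direction, with 2 higher and 3 lower at an unadjusted p under 0.05 and 1 called higher by DESeq2, while edgeR called 1 higher with FIT replicate 2 left out. Tryptophan breakdown and the AHR response had 4 of 15 genes upregulated and 0 downregulated (0 at an unadjusted p under 0.05, 0 by DESeq2). TDO2, which opens the tryptophan ring, was at 1.43, 2.45 and 1.82 FPKM in D-3 and 0.0684, 0.116 and 0.289 FPKM in FIT (log2 fold change 3.57 ± 0.55, adjusted p = 0.0105). NQO1, described above, belongs to the same list, while QPRT and KYNU lost the call without at least 1 library, so that the count was 2 with D-3 replicate 1 or 3 or FIT replicate 2 left out. UPP1, a uridine phosphorylase, was the only upregulated gene among 43 of nucleotide synthesis and salvage (log2 fold change 2.34 ± 0.29, adjusted p = 0.00519). In that list 1 gene, NT5E, was downregulated. At an unadjusted p under 0.05, 3 were higher and 7 lower, and DESeq2 called 1 higher and 3 lower. The downregulated count was 0 with D-3 replicate 3 left out, 4 with D-3 replicate 2 left out and 3 with FIT replicate 3 left out.

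Fibrillar collagens were lower in D-3. All 8 tested had a negative log2 fold change, with a median of -1.44, and 3 were downregulated and 0 were upregulated (0 at an unadjusted p under 0.05, 0 by DESeq2). Without FIT replicate 3, 1 was upregulated. COL1A1 (chr17:50184101-50201632, minus strand), which with COL1A2 builds the type I collagen of bone, was at 2.69, 2.94 and 3.02 FPKM in D-3 and 20.96, 19.6 and 20.2 FPKM in FIT (log2 fold change -2.87 ± 0.14, adjusted p = 0.000273). COL1A2 was at 1.63, 1.52 and 2.51 FPKM in D-3 and 5.12, 6.39 and 16.9 FPKM in FIT (log2 fold change -2.37 ± 0.44, adjusted p = 0.0194), and the call was lost without D-3 replicate 1 (adjusted p = 0.0808) or D-3 replicate 3 (adjusted p = 0.0606). COL5A3, a chain of type V collagen, had the largest fall of the list, from 3.095, 5.32 and 3.02 FPKM in FIT to 0.136, 0.0939 and 0.1098 FPKM in D-3 (log2 fold change -5.13 ± 0.37, adjusted p = 0.000931). The groups did not overlap for COL1A1 or COL5A3. The mean of COL1A1 was 4.19 ± 0.606 FPKM (SD, n = 3) in D-2, 4.12 ± 0.892 in DP-3 and 6.38 ± 4.98 in IT, and D-3 against D-2 gave a log2 fold change of -0.79 (adjusted p = 0.006299). In the basement membrane, COL15A1 fell (-1.7) as did the laminin chain LAMA5 (-2.12), and ITGA10, a collagen-binding integrin subunit, had a log2 fold change of -2.71.

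The proteases that remodel matrix moved both ways. Of 15 matrix metalloproteinases tested, 4 were upregulated (MMP3, MMP12, MMP13 and MMP15) and 1 was downregulated (MMP14). MMP3, stromelysin 1 (chr11:102835801-102843609, minus strand), was at 29.3, 31.6 and 52.4 FPKM in D-3 and 0.189, 0.252 and 0.3198 FPKM in FIT (log2 fold change 7.17 ± 0.35, adjusted p = 0.000273), the largest log2 fold change among the 10 upregulated DEGs picked for size. The means of MMP3 in D-2, DP-3 and IT were 8.04 ± 0.135, 14.8 ± 1.78 and 14.1 ± 11.6 FPKM (SD, n = 3), between the D-3 and FIT levels, and D-3 exceeded D-2 (log2 fold change 1.98 ± 0.23, adjusted p = 0.00217). MMP14, the membrane protease that activates other collagenases, was at 87.3, 96.9 and 82.4 FPKM in D-3 and 160.3, 184 and 234 FPKM in FIT (log2 fold change -1.17 ± 0.18, adjusted p = 0.0109), and the call was lost without D-3 replicate 3 (adjusted p = 0.0617). MMP12 and MMP13 also lost the call without at least 1 library, and the upregulated count was 2 with D-3 replicate 3 or FIT replicate 2 left out, while the downregulated count was 2 with D-3 replicate 2 left out and 0 with D-3 replicate 3 left out. Among 13 ADAMTS proteases, 4 were downregulated, ADAMTS14 in all fits (log2 fold change -2.33 ± 0.21, adjusted p = 0.00165) and ADAMTS1, ADAMTS10 and ADAMTS12 not in all, while ADAMTS9 was upregulated at under 1 FPKM and lost the call whichever library was left out. The downregulated count was 1 with D-3 replicate 1 or 3 left out and 2 with FIT replicate 2 left out. In the plasminogen system, PLAT, the tissue plasminogen activator, was at 2.13, 1.79 and 3.28 FPKM in D-3 and 16.96, 16.2 and 24.7 FPKM in FIT (log2 fold change -3.06 ± 0.27, adjusted p = 0.00165). SERPINB7, a serine protease inhibitor, had a log2 fold change of 5.61.

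**Figure D3:**
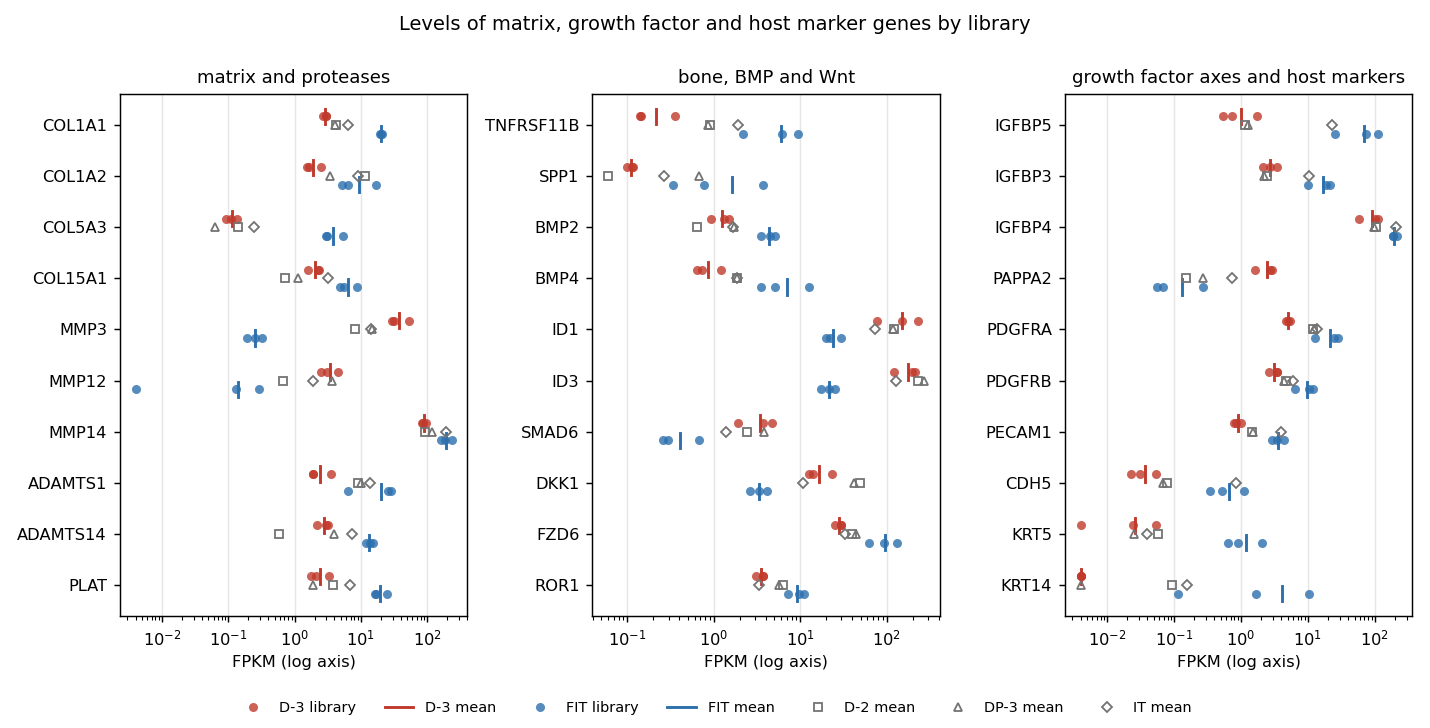
FPKM on a log axis of 30 genes of the matrix and its proteases, of bone, BMP and Wnt signaling, and of growth factor axes and host markers, with red points for D-3 libraries, blue points for FIT libraries, bars for group means, open gray symbols for the means of D-2, DP-3 and IT, and values below 0.004 FPKM drawn at 0.004. D-3 lies to the left of FIT for the collagens, TNFRSF11B and IGFBP5 and to the right for MMP3, ID1, ID3, SMAD6, DKK1 and PAPPA2.

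Bone genes were mixed, with 5 of 17 tested osteoblast and bone matrix genes downregulated and 2 upregulated. TNFRSF11B, osteoprotegerin, the decoy that keeps RANKL from osteoclasts, was at 0.142, 0.142 and 0.3601 FPKM in D-3 and 9.48, 6.102 and 2.197 FPKM in FIT (log2 fold change -4.82 ± 0.65, adjusted p = 0.00666). BMP1, the protease that trims procollagen ends, had a log2 fold change of -1.34. SPP1, osteopontin, was at 0.117, 0.0997 and 0.114 FPKM in D-3 and 0.763, 3.75 and 0.342 FPKM in FIT, and its call was lost without D-3 replicate 1 (adjusted p = 0.126), D-3 replicate 2 (adjusted p = 0.084), D-3 replicate 3 (adjusted p = 0.134), FIT replicate 1 (adjusted p = 0.0531) or FIT replicate 2 (adjusted p = 0.1). ANKH and MSX1 were the other downregulated genes and SMPD3 and PHEX the upregulated ones, and each lost the call without at least 1 library. The downregulated count was 3 with D-3 replicate 1 or FIT replicate 1 or 2 left out and 2 with D-3 replicate 3 left out, and the upregulated count was 0 with D-3 replicate 1 or 3 or FIT replicate 1 or 2 left out and 1 with D-3 replicate 2 left out.

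Targets of BMP signaling rose more often than they fell, and the BMP ligands that changed were lower. Of 15 BMP targets, 6 were upregulated and 2 downregulated, with a median log2 fold change of 1.7. ID1 and ID3, inhibitors of helix-loop-helix factors and direct targets of BMP signaling, were at 77.04, 150.1 and 229.5 FPKM and 121, 197 and 215 FPKM in D-3. In FIT they were at 19.8, 29.6 and 22.1 FPKM and 17.5, 25.3 and 21.5 FPKM (ID1: log2 fold change 2.6 ± 0.39, adjusted p = 0.00943, and ID3: log2 fold change 2.98 ± 0.27, adjusted p = 0.00172). No library of D-3 overlapped FIT for ID1 or ID3. The feedback inhibitors SMAD6 and BAMBI had log2 fold changes of 3.0 and 1.51, and SMAD9 had 2.99, and all 3 were called in each fit leaving out 1 library. SMAD7, MSX1 and HES1 lost the call without at least 1 library, and the downregulated count was 0 with D-3 replicate 1 or 3 or FIT replicate 1 or 2 left out and 1 with FIT replicate 3 left out. Of 18 BMP, TGF-β and activin ligands and their proteases, 4 were downregulated (BMP4, GDF6, BMP2 and BMP1) and 2, the stress-induced GDF15 and INHBE, were upregulated, and the downregulated count was 1 with D-3 replicate 3 left out. BMP2 was at 1.31, 1.51 and 0.923 FPKM in D-3 and 5.15, 4.44 and 3.48 FPKM in FIT (log2 fold change -1.86 ± 0.29, adjusted p = 0.0115), with the call lost without D-3 replicate 3 (adjusted p = 0.054). BMP4 was at 1.21, 0.637 and 0.731 FPKM in D-3 and 5.06, 3.54 and 12.6 FPKM in FIT (log2 fold change -3.06 ± 0.50, adjusted p = 0.0123), with the call lost without D-3 replicate 3 (adjusted p = 0.0662). SMAD1, a carrier of the BMP signal, was at 3.07, 2.58 and 2.78 FPKM in D-3 and 14.6, 11.1 and 10.4 FPKM in FIT (log2 fold change -2.16 ± 0.18, adjusted p = 0.00139). ID1 had a mean of 122 ± 8.45 FPKM (SD, n = 3) in D-2, 118 ± 20.96 in DP-3 and 72.6 ± 27.4 in IT, and D-3 was not called against D-2 (log2 fold change 0.06 ± 0.34, adjusted p = 0.908). Of the 15 targets, 2 were upregulated and 0 were downregulated against D-2 (4 at an unadjusted p under 0.05, 0 by DESeq2), with 1 downregulated without D-3 replicate 2. The shares of all genes tested against D-2 were 14.6% upregulated and 3.95% downregulated.

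Wnt genes leaned downward, with 6 of 25 ligands, receptors and inhibitors downregulated, 3 upregulated and a median log2 fold change of -0.47 that was 0.02 with no filter on FPKM. DKK1, a secreted inhibitor of Wnt, was at 12.5, 23.6 and 13.9 FPKM in D-3 and 2.65, 3.34 and 4.14 FPKM in FIT (log2 fold change 2.25 ± 0.30, adjusted p = 0.00657). ROR1, a receptor for WNT5A, was at 3.74, 3.07 and 3.67 FPKM in D-3 and 9.77, 10.9 and 7.17 FPKM in FIT (log2 fold change -1.48 ± 0.21, adjusted p = 0.00844). WNT5A itself had a log2 fold change of -1.16, with the call lost without D-3 replicate 3 (adjusted p = 0.0564). FZD6, a frizzled receptor, had a log2 fold change of -1.82, with the call lost without D-3 replicate 3 (adjusted p = 0.0523). It overlaps the antisense gene BAALC-AS1, which was also a DEG. WNT7A, WNT7B and WNT9A were also downregulated and WNT2 and WNT10B upregulated, each with the call lost without at least 1 library. The downregulated count was 1 with D-3 replicate 3 left out, and the upregulated count was 1 with D-3 replicate 1 or 3 or FIT replicate 1 or 2 left out. DKK1 was lower in D-3 than in D-2, where its mean was 49.5 ± 5.51 FPKM (log2 fold change -1.82 ± 0.25, adjusted p = 0.003202).

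IGFBP5 and IGFBP3, binding proteins of insulin-like growth factors, fell and a protease that cleaves them rose. IGFBP5 (chr2:216672105-216695549, minus strand), the binding protein that bone holds in largest amount, was at 1.74, 0.5298 and 0.735 FPKM in D-3 and 111, 73.5 and 25.8 FPKM in FIT (log2 fold change -6.19 ± 0.70, adjusted p = 0.003699). IGFBP3, the main carrier in blood, was at 2.67, 2.13 and 3.46 FPKM in D-3 and 21.7, 18.7 and 10.1 FPKM in FIT (log2 fold change -2.67 ± 0.32, adjusted p = 0.00477). PAPPA2, which cleaves IGFBP3 and IGFBP5, was at 2.94, 2.72 and 1.597 FPKM in D-3 and 0.0553, 0.069 and 0.274 FPKM in FIT (log2 fold change 4.21 ± 0.63, adjusted p = 0.00946). The groups did not overlap for any of these 3 genes. IGFBP5 had a mean of 1.17 ± 0.292 FPKM (SD, n = 3) in D-2, 1.26 ± 0.454 in DP-3 and 23.3 ± 15.7 in IT, and D-3 was not called against D-2 (adjusted p = 0.444). Of 13 genes of this axis tested, 4 were downregulated, with IGFBP4 and IRS1 beside these, and 3 were upregulated, with STC2 and INSR beside PAPPA2. IGFBP4, IRS1 and INSR lost the call without at least 1 library, and the downregulated count was 2 with D-3 replicate 1 or 3 or FIT replicate 1 or 2 left out.

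In the PDGF, VEGF and angiopoietin axis, 4 of 16 genes were downregulated and 2 upregulated. The counts were 2 with D-3 replicate 1 or FIT replicate 1 or 2 left out and 1 with D-3 replicate 3 left out for the downregulated genes and 1 with D-3 replicate 1 or 3 or FIT replicate 1 or 2 left out for the upregulated ones. PDGFRA, a PDGF receptor of mesenchymal cells, was at 4.78, 5.34 and 4.96 FPKM in D-3 and 24.2, 28.3 and 12.6 FPKM in FIT (log2 fold change -2.18 ± 0.30, adjusted p = 0.007301). PDGFRB had a log2 fold change of -1.66, with the call lost without D-3 replicate 3 (adjusted p = 0.054). PGF, placental growth factor, was upregulated at a mean below 1 FPKM in both groups and PDGFB likewise, while TEK and NRP1 were the other downregulated genes, and of these 4 only PGF was called in all 6 fits leaving out 1 library. Mesenchymal and epithelial factors and junction genes went both ways. Of 23 tested, 4 were downregulated (CDH5, PRRX1, CDH11 and TJP1) and 3 upregulated (CLDN1, ESRP1 and CDH3). The upregulated count was 2 with D-3 replicate 1 or 3 or FIT replicate 1, 2 or 3 left out. The downregulated count was 3 with D-3 replicate 1 or FIT replicate 1 or 2 left out and 2 with D-3 replicate 3 left out. CDH3 lost the call without D-3 replicate 1, D-3 replicate 3 or FIT replicate 2. Of 20 claudins and connexins, CLDN1 was upregulated and CLDN2 and GJB2 were downregulated. That downregulated count was 0 with D-3 replicate 1 or FIT replicate 2 left out. PRRX1, a transcription factor of limb mesenchyme, and CDH11, the cadherin of osteoblasts, had log2 fold changes of -2.4 and -1.58. CLDN1, a tight junction protein, was at 4.44, 0.717 and 3.204 FPKM in D-3 and at the limit of detection in FIT, at least 41.9-fold higher, and ESRP1, a splicing factor of epithelial cells, was at 3.05, 2.83 and 3.54 FPKM in D-3 and 0.0568, 0.0301 and 0.0277 FPKM in FIT (log2 fold change 6.1 ± 0.39, adjusted p = 0.000677). ANKRD1, a YAP target, had a log2 fold change of 4.6, but 2 of 22 YAP/TEAD targets were upregulated, 1 was downregulated and the median was 0.10. The upregulated count of that list was 1 with D-3 replicate 1 or 3 or FIT replicate 1, 2 or 3 left out and 4 with D-3 replicate 2 left out, and the downregulated count was 0 with D-3 replicate 3 left out.

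Among gene families, 4 of 34 SOX and FOX factors were downregulated (FOXS1, FOXA2, FOXC2 and FOXM1) and 1 was upregulated (FOXO1). FOXM1, which drives mitotic genes, was at 16.2, 16.8 and 16.8 FPKM in D-3 and 32.1, 37.6 and 42.01 FPKM in FIT (log2 fold change -1.22 ± 0.15, adjusted p = 0.00538). FOXS1 and FOXA2 had log2 fold changes of -4.35 and -3.27, and FOXC2 and FOXO1 lost the call without at least 1 library. HOXB9 was the upregulated HOX gene of 30 tested (log2 fold change 2.93 ± 0.19, adjusted p = 0.000702), 3 others were downregulated and 21 of the 30 were lower in D-3. The downregulated HOX count was 0 with D-3 replicate 1 or 3 left out and 1 with FIT replicate 1 or 2 left out. Of 22 cytochromes P450, 3 were upregulated and 0 were downregulated (1 at an unadjusted p under 0.05, 1 by DESeq2), and the upregulated count was 5 with FIT replicate 3 left out, while the downregulated count was 1 with D-3 replicate 2 left out. In D-3 against D-2, 12 of 23 tested were upregulated, against 14.6% of all genes tested. That count was 8 to 10 with 1 library left out and 3 to 14 over the settings that used all libraries. CYP24A1, which degrades vitamin D, was at 3.09, 2.52 and 3.37 FPKM in D-3 and 0.278, 0.216 and 0.2203 FPKM in FIT (log2 fold change 3.57 ± 0.30, adjusted p = 0.00144). Of 14 Eph receptors and ephrins, 3 were downregulated and 0 were upregulated (2 at an unadjusted p under 0.05, 1 by DESeq2), with 1 upregulated without FIT replicate 3 and EPHB6 and EPHA4 called in every fit leaving out 1 library (-3.44 and -1.67). S100A4 and S100A6, calcium-binding proteins abundant in mesenchymal cells, had log2 fold changes of -1.61 and -1.13. Among the same 23 S100 and annexin genes tested, ANXA10 and ANXA1 were upregulated. The upregulated count was 0 with D-3 replicate 3 left out and 1 with D-3 replicate 1 or FIT replicate 1 left out. The downregulated count was 4 with D-3 replicate 2 left out. ADAM19, a sheddase, had a log2 fold change of -2.66, and ADAM22, ADAM21 and ADAM23 were upregulated among the 12 ADAM proteases tested. SCG2, a granin of secretory vesicles, had -3.13, and NRXN3 was upregulated among the same 12 neuronal and synaptic genes. DUSP10, a phosphatase of stress kinases, had 2.15, and DUSP27 and DUSP4 were downregulated among 18 dual-specificity phosphatases. With D-3 replicate 1 or 3 or FIT replicate 1 or 2 left out, 1 ADAM gene was upregulated and NRXN3, DUSP27 and DUSP4 were not called.

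Transporters had 19 of 245 solute carriers upregulated and 8 downregulated, and 5 of 28 ABC transporters upregulated (ABCC9, ABCB4, ABCB1, ABCC3 and ABCG4) and 0 downregulated (5 at an unadjusted p under 0.05, 2 by DESeq2). ABCB1 and ABCG4 lost the call without at least 1 library. ABCC3, which exports conjugated drugs and bile acids, was at 1.76, 1.29 and 1.92 FPKM in D-3 and 0.255, 0.154 and 0.322 FPKM in FIT (log2 fold change 2.69 ± 0.34, adjusted p = 0.00524) and was the only ABC transporter of the 5 with a mean of at least 1 FPKM. SLC6A8, the creatine importer, had a log2 fold change of 1.85, and SLC12A2, a sodium, potassium and chloride cotransporter, of -1.71. The number of upregulated solute carriers was 6 with D-3 replicate 1 left out, 7 with D-3 replicate 3 left out, 9 with FIT replicate 1 left out and 8 with FIT replicate 2 left out, and the number downregulated was 4 with D-3 replicate 1 left out, 2 with D-3 replicate 3 left out and 3 with FIT replicate 1 or 2 left out. Of 393 long intergenic RNAs (LINC) tested, 49 were upregulated and 7 downregulated, against 4.29% and 2.17% of all genes tested. Their median log2 fold change was 0.60 (0.43 with the genes at the limit of detection set at their bounds). The upregulated count was 11 with D-3 replicate 1 left out, 7 with D-3 replicate 3 left out, 26 with FIT replicate 1 left out and 20 with FIT replicate 2 left out, and the downregulated count was 0 with D-3 replicate 1 or 3 left out, 2 with FIT replicate 1 left out and 3 with FIT replicate 2 left out. LINC02154 was at 33.9, 6.52 and 35.7 FPKM in D-3 and 0.246, 0.152 and 0.608 FPKM in FIT (log2 fold change 6.27 ± 0.80, adjusted p = 0.00546) and was called in all 6 fits. Zinc finger (ZNF) genes had 12 of 465 upregulated and 4 downregulated, with upregulated counts of 2 with D-3 replicate 1 left out and 4 with D-3 replicate 3 or FIT replicate 2 left out and downregulated counts of 2 with D-3 replicate 1 or FIT replicate 1 left out, 8 with D-3 replicate 2 left out and 1 with D-3 replicate 3 or FIT replicate 2 left out.

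The DEGs with the largest change at a mean of at least 1 FPKM, picked by size rather than by list, held further named genes. MYCL, a MYC family factor, was at 2.14, 1.13 and 1.75 FPKM in D-3 and 0.00954, 0.028 and 0.0935 FPKM in FIT (log2 fold change 5.32 ± 0.76, adjusted p = 0.00812). PTPRR, a phosphatase of MAP kinases, had a log2 fold change of 4.91 and ABI3BP, a matrix protein, of 4.83, and CD177, a surface protein known from neutrophils, was at least 12.3-fold higher. On the downregulated side, PTGDR2, a prostaglandin D2 receptor, was at 0.000842, 0.00114 and 0.116 FPKM in D-3 and 6.06, 4.06 and 11.4 FPKM in FIT (log2 fold change -7.4 ± 1.04, adjusted p = 0.00784), but it overlaps an antisense gene that was also a DEG. Among 17 genes of prostaglandin and leukotriene synthesis and their receptors, 5 were upregulated (PTGES, PLA2G4A, PLA2G4C, PTGR2 and LTA4H) and 3 downregulated (PTGDR2, TBXAS1 and PTGER2). Their counts were 1 with D-3 replicate 1 or 3 left out and 2 with FIT replicate 1 or 2 left out for the upregulated and 1 with D-3 replicate 1 or 3 or FIT replicate 1 or 2 left out for the downregulated genes. TBXAS1 overlaps HIPK2 on the other strand, which was also a DEG. LSP1, an actin-binding protein of leukocytes, was at 0.167, 0.104 and 0.0768 FPKM in D-3 and 5.81, 6.97 and 7.96 FPKM in FIT (log2 fold change -5.94 ± 0.34, adjusted p = 0.00045). It overlaps PRR33 on the other strand, which was also a DEG (log2 fold change -6.56), so reads of the 2 genes cannot be separated. SPI1, the myeloid factor PU.1, was at 0.26, 0.056 and 0.0862 FPKM in D-3 and 1.29, 1.78 and 21.1 FPKM in FIT, where replicate 3 stood far above the others, and its call was lost without D-3 replicate 1 (adjusted p = 0.0757), D-3 replicate 2 (adjusted p = 0.0699) or D-3 replicate 3 (adjusted p = 0.122). CD180, a Toll-like receptor relative, had a log2 fold change of -5.82. MAF, a transcription factor, had a log2 fold change of -5.03, with the call lost without D-3 replicate 1 (adjusted p = 0.121), D-3 replicate 2 (adjusted p = 0.0809) or D-3 replicate 3 (adjusted p = 0.129).

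Few genes of the growth programs were DEGs between D-3 and FIT. Of 52 mitosis genes, 1 (FOXM1) was downregulated and 0 upregulated, with a median log2 fold change of -0.12, and of 42 DNA replication genes 1 (MCM5, a call lost in 5 of the 6 fits leaving out 1 library) was downregulated and 0 upregulated, with a median of -0.33. At an unadjusted p under 0.05, 5 mitosis genes and 7 replication genes were lower in D-3 and 0 of either were higher, and DESeq2 called 1 and 2 lower and 0 higher. Leaving out D-3 replicate 2 gave 3 downregulated mitosis genes. TOP2A, a topoisomerase of dividing cells, was at 36.9, 38.7 and 67.4 FPKM in D-3 and 34.7, 40.6 and 45.6 FPKM in FIT (log2 fold change 0.18 ± 0.25, adjusted p = 0.7099). D-3 did differ from D-2 in these lists, with 28 of 52 mitosis genes downregulated (median -1.01) and 21 of 42 replication genes downregulated (median -0.99). Of all genes tested against D-2, 3.95% were downregulated. The mitosis count against D-2 was 18 without D-3 replicate 1 and 15 by limma on log2(FPKM + 0.1). The replication count was 9 and 8 with D-3 replicate 1 or 3 left out, 10 without D-2 replicate 1, 14 without D-2 replicate 2 and 11 by limma.

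EdgeR called 0 DEGs in 4 housekeeping families. Of 78 cytosolic ribosomal proteins, 75 were higher in D-3, with a median log2 fold change of 0.34 and 34 higher at an unadjusted p under 0.05. Of 60 nuclear-encoded respiratory chain subunits, 9 were higher and 2 lower at an unadjusted p under 0.05. Of 37 proteasome subunits, 1 was higher and 4 were lower at that p, and of 78 mitochondrial ribosomal proteins 6 were higher and 5 lower, and edgeR called 2 of these lower with D-3 replicate 2 left out. DESeq2 called 0 in all 4 families. Genes of the mitochondrial genome were the exception: all 15 were lower in D-3, with a median of -0.64, and MT-ATP8, MT-CYB and MT-CO3 were downregulated. The downregulated count was 5 with D-3 replicate 2 left out and 1 with D-3 replicate 3 left out. These transcripts took 11.97 to 16.6% of summed FPKM in D-3 and 23.0 to 24.7% in FIT.

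**Figure D4:**
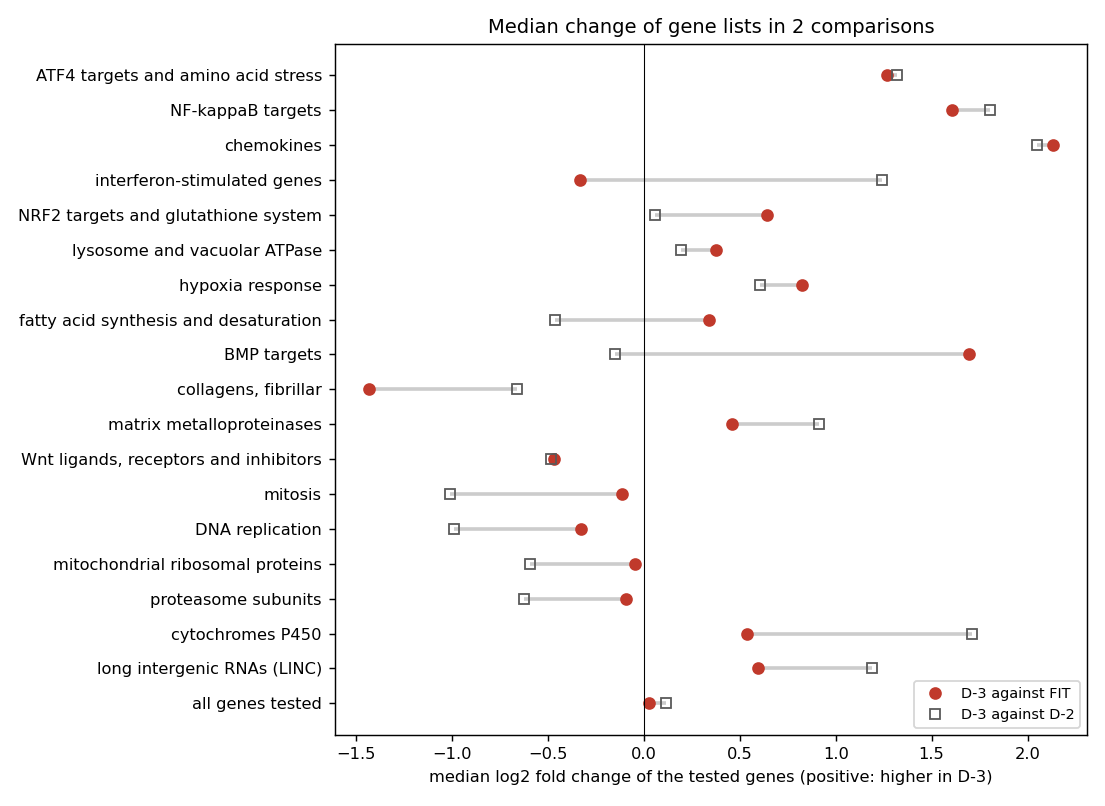
Median log2 fold change of the tested genes of 18 lists and of all genes tested, for D-3 against FIT (red points) and D-3 against D-2 (open squares), with gray lines joining both values of a list and positive values meaning a higher level in D-3; both comparisons use the same D-3 libraries. ATF4 and NF-κB targets lie to the right in both, BMP targets have medians of 1.70 against FIT and -0.15 against D-2, and interferon-stimulated genes (-0.33 and 1.24) and mitosis genes (-0.12 and -1.01) differ between the comparisons.

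Markers of host cell types bear on FIT, since reads from mouse genes that resemble human ones can be counted with them. In bulk RNA, fewer cells of a type and less RNA per cell cannot be told apart. Of 8 endothelial markers tested, 3 were downregulated in D-3 (PECAM1, CDH5 and TEK) and 1 (EGFL7) was upregulated, and the downregulated count was 1 with D-3 replicate 3 left out. EGFL7 lost the call without D-3 replicate 1 (adjusted p = 0.064), D-3 replicate 3 (adjusted p = 0.0788), FIT replicate 1 (adjusted p = 0.0545) or FIT replicate 2 (adjusted p = 0.0568). Their summed FPKM was 44.7 to 45.9 in D-3 and 37.3 to 52.4 in FIT. PECAM1, the adhesion molecule CD31, was at 0.855, 1.02 and 0.792 FPKM in D-3 and 4.46, 2.93 and 3.397 FPKM in FIT (log2 fold change -2.06 ± 0.23, adjusted p = 0.003403). Of 9 fibroblast markers, 3 were downregulated (CLEC3B, PDGFRA and PDGFRB) and 1 (MFAP5) was upregulated, a call lost without D-3 replicate 1 (adjusted p = 0.0851), D-3 replicate 2 (adjusted p = 0.0811), D-3 replicate 3 (adjusted p = 0.0847), FIT replicate 1 (adjusted p = 0.0989) or FIT replicate 2 (adjusted p = 0.114), with sums of 61.8 to 75.4 and 66.7 to 95.1 FPKM, and DCN, a defining marker, was at or near 0. Of 6 keratinocyte markers, KRT5 and KRT14 were downregulated in D-3, a count that was 1 with D-3 replicate 1 or FIT replicate 1 or 2 left out and 0 with D-3 replicate 3 left out, and the sums were 28.2 to 33.0 and 30.1 to 65.6 FPKM. KRT14 was at 0, 0 and 0 FPKM in D-3 and 10.4, 1.67 and 0.115 FPKM in FIT, with the call lost without D-3 replicate 1 (adjusted p = 0.096), D-3 replicate 2 (adjusted p = 0.0633), D-3 replicate 3 (adjusted p = 0.106), FIT replicate 1 (adjusted p = 0.0514) or FIT replicate 2 (adjusted p = 0.077). Of 6 macrophage markers, 1 (FCER1G) was upregulated in D-3 and 0 were downregulated (0 at an unadjusted p under 0.05, 0 by DESeq2), and FCER1G lost the call without at least 1 library. Of 3 adipocyte markers FABP4, a fatty acid carrier, was at least 14.97-fold higher in D-3. MYH2 and MYH1, myosins of skeletal muscle, reached 3.61 and 0.791 FPKM in FIT replicate 3 alone. The part of these cell types in the lower collagen, PDGF receptor and IGFBP levels of D-3 was not tested.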

How the data were processed

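RNA of 18 libraries was sequenced. Per the submitters' processing notes, reads were trimmed with cutadapt 1.9, aligned with HISAT2 2.0.4 and assembled with StringTie 1.3.4d. The genome build is not given in the sources used here, and the strand setting of the counting is not stated, so antisense genes that overlap cannot be separated. The deposited table holds the authors' estimated counts per gene, written as whole numbers, and the authors' FPKM, which is scaled by gene length and library total. Its fold change and p-value columns hold the authors' own comparisons and were not used. Of 50119 genes, 48223 were found in GENCODE 29 by gene identifier, and positions overlapped for 99.89% of these. Of the deposited counts from 1 to 20, 38.18% were multiples of 4, against 25% expected by chance, and how many counts a read pair gave is not stated. The limit of detection was set at 12 counts per library, on the untested assumption of at most 4 counts per read pair and 3 read pairs, and a fold against libraries at or below it is a lower bound under that assumption.

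Genes with at least 0.1 FPKM in at least 3 of the 6 libraries compared were tested by edgeR 4.0.16 (quasi-likelihood, TMM scaling, R 4.3.3) with Benjamini-Hochberg adjustment. The biological coefficient of variation was 39.9%. On simulated counts for D-3 against FIT over 21676 genes, 122 of 200 changed genes were recovered with 9 false calls, and 91 of the 135 changed by at least 4-fold were recovered. DESeq2 recovered 155 with 52 false calls and limma 112 with 5. The changed genes left out those with low counts and all changed by more than 2-fold. Recovery of low genes, of changes near 2-fold and with a larger share of changed genes was therefore not measured. With 3 libraries against 3 the smallest exact two-sided permutation p is 0.1, so single-gene permutation tests were not used. Alternatives were DESeq2 1.42.0, limma 3.58.1 on log2(FPKM + 0.1) or log2(FPKM + 1), other scalings and filters, a fit of 15 libraries, a replicate block and leaving out each library. Figures were drawn with matplotlib 3.10.9.

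Gene lists and the libraries compared were chosen with earlier results of these data known. By rule, the genes named were the 10 DEGs up and the 10 down with the largest change (above 0 FPKM in all 6 libraries, a mean of at least 1 FPKM in a group, no overlap of the groups), up to 3 DEGs in each direction per list and up to 2 per family at a mean of at least 1 FPKM, and the first gene of each list. Not all of them are printed. ASNS, BAMBI, CD74, CIITA, CTH, CXCL3, GAA, HLA-DMA, HLA-DRB1, ICAM1, IL32, LOX, MTHFD2, NFE2L2, PHGDH, PSAT1, SLC12A2, SLC6A8, SMAD1, SOD2, TOP2A, TRIB3, TXNRD1 and WNT5A fell outside that rule and were chosen after their values were seen, as were genes named only to complete a count. Some genes of these lists are not reported here.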

Additional observations from a re-analysis of the deposited data

How the results depend on the processing

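The number of DEGs depended on the method and on single libraries, while the totals kept more upregulated than downregulated DEGs in the fits run. Interferon-stimulated genes went from 1 upregulated and 0 downregulated to 0 and 6 without FIT replicate 3. The Wnt median (-0.47) was 0.02 with no FPKM filter, and the medians near 0 of glycolysis, mitosis and YAP/TEAD targets changed sign with at least 1 library left out. For D-3 against FIT, DESeq2 called 2498 DEGs (1576 upregulated, 922 downregulated) and limma on log2(FPKM + 1) called 739 (505 upregulated, 234 downregulated). Replicate numbers did not pair the libraries, since the correlations of same-numbered libraries' deviations lay between -0.044 and 0.010 and not every library correlated best with its own number. A fit with a replicate block gave 904 DEGs (556 upregulated). Leaving out each library gave 371 to 1518 DEGs, 243 to 965 upregulated and 128 to 598 downregulated. For D-3 against D-2, limma on log2(FPKM + 1) called 1178 DEGs (1004 upregulated, 174 downregulated), limma on log2(FPKM + 0.1) called 389 downregulated, and a filter at 1 FPKM left 1902 (1525 upregulated, 377 downregulated). Leaving out each library there gave 2725 to 4343 DEGs, 2045 to 2982 upregulated and 587 to 1361 downregulated, the last without D-3 replicate 2. Of 397 called genes followed, 3 lost the call with DESeq2, 61 with limma on log2(FPKM + 0.1), 175 with log2(FPKM + 1), 24 in the fit of 15 libraries and 128 with the replicate block. The cause of these differences was not tested. FIT replicate 3 had the fewest counts, so low genes are measured least precisely there. Reads from mouse cells in FIT were not separated here, and counting intervals would cover counting error only.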
